A study of Mus musculus with 20 samples.

Results

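The comparison set 3 arrays of mouse embryos at embryonic day E10.5 against 3 arrays of embryos at E9.5, which are 6 of the 20 arrays of a series of 8 stages, and asked which genes changed over that day. The members were chosen by the stage in the sample labels, and no measured value entered the choice. At both stages the material was the whole embryo without the amnion from wild type C57BL/6 mice kept specific-pathogen free, with embryos of mixed sex. RNA of several embryos was pooled to make a sample, and every sample went on an Affymetrix mouse genome array of its own, a chip that reads each transcript with 1 or more sets of short probes. The labels call the samples biological replicates, so the comparison has 3 pools of embryos per stage (n = 3 against 3). The spread behind each p-value is that between arrays of the same stage, estimated over all 20 arrays of the 8 stages and not from these 6 alone. The 3 arrays of E8.5, made the same way, served to set the day studied beside the day before it.

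Around these days the neural tube, a sheet of dividing progenitors, begins to release its first large groups of neurons, and sensory and autonomic ganglia form beside it from neural crest and placodes. Proneural transcription factors of the basic helix-loop-helix (bHLH) family start the programme in a progenitor, factors such as Nhlh, Ebf, Insm and Myt1 act as the cell leaves the cycle, and the new neuron then makes its own tubulin-binding proteins, neurofilaments, guidance receptors and, later, synaptic proteins. In the same period the liver bud grows, macrophages from the yolk sac settle in the embryo, limb buds extend and the tail bud still adds somites.

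The sequences just before the starts of strongly changed genes from the lists of bHLH factors and of neuronal cytoskeleton genes are shown first, because the bHLH factors that drive neuron formation bind short E-box motifs. The windows are those of the bHLH factor Nhlh2 and of the structural genes Rufy3, Dcx and Ina, each the 250 bases before the RefSeq transcript start in build GRCm38.p6, written 5′ to 3′ on the strand of the gene with any CAGATG or CAGCTG on either strand in capitals. They lie at chr3:102009895-102010144 on the plus strand for Nhlh2, chr5:88564790-88565039 on the plus strand for Rufy3, chrX:143933220-143933469 on the minus strand for Dcx and chr19:47014431-47014680 on the plus strand for Ina. Stmn4 and Stmn2, which the same rule chose, are named only, and the rule did not cover other neuronal lists, whose Bcl11a and Slc17a6 changed by more than Dcx.
Nhlh2: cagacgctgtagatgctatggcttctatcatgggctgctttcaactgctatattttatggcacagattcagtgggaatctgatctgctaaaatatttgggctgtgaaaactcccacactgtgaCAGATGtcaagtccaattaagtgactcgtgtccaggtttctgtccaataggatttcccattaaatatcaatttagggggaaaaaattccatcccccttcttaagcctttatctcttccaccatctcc
Rufy3: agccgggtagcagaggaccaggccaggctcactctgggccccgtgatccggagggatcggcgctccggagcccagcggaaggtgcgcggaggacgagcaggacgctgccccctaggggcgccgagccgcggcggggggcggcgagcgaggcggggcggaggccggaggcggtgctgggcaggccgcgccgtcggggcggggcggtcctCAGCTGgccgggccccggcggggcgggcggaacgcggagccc
Dcx: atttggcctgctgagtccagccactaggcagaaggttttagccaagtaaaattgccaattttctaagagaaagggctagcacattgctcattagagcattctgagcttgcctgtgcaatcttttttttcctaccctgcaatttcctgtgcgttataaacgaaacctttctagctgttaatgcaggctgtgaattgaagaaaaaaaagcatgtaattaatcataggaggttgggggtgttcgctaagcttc
Ina: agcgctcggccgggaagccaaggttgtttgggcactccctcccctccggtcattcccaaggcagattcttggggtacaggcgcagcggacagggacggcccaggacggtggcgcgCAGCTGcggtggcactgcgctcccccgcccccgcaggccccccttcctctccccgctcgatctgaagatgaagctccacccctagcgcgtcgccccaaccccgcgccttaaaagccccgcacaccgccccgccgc
Nhlh2 held 1 CAGATG, Rufy3 and Ina held 1 CAGCTG each, and neither motif was in the Dcx window shown. Rufy3 and Dcx have 2 starts listed each, and only the window of the first is printed. CAGATG, the form read by neurogenin and NeuroD proteins, was in 14.4% of the 32851 promoter windows in the RefSeq table and in 10.6% of the windows of all genes tested. Among the neural genes that rose it was in 14 of 94 windows (14.9%), and among neural genes that were not called in 10.9%. The share was 15.5% among the windows of all genes that rose and 6 of 18 (33.3%) among those of the macrophage genes that rose, so it was not higher in the neural rises than in other rises. CAGCTG, whose letters read the same on both strands, was in 13% of all windows, 12.4% of those of genes tested, 19 of 94 (20.2%) of those of neural genes that rose and 12.2% of those of neural genes not called. It was in 18.2% of the windows of all genes that rose and in 22.2% of those of the macrophage genes that rose. The windows of the 4 genes differed in base composition, from 41.6% G and C in Dcx to 80.8% in Rufy3, and a match marks letters in a window, not a bound site.

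Array medians were 67.5 to 82.7 at E9.5 and 79.9 to 91.1 at E10.5, and in each stage the array numbered 1 had the lowest. The 3′ to 5′ signal ratio of Gapdh, a measure of RNA integrity, was 0.787 to 0.803 at E9.5 and 0.808 to 0.833 at E10.5, so that the stages did not overlap. The same ratio of actin did overlap, at 1.128 to 1.21 at E9.5 and 1.075 to 1.172 at E10.5. E9.5 replicate 2 had higher hybridisation controls than the other 5 arrays, with BioB at 1131 against 575 to 701 and Cre at 35931 against 20051 to 25528. Without that array 457 genes rose in place of 441, by the rule given below, and the part of the Gapdh ratio in the changes was not tested. Log2 signals correlated at 0.980 to 0.983 between arrays of a stage and at 0.964 to 0.976 between the stages (Pearson's r across genes, which are not independent). Values below are MAS5 signals, the array maker's summary of a probe set on a linear scale, and are listed in the order of the replicate numbers. Changes are differences of log2(signal + 25.9) ± the standard error of the limma fit, so a change of 1 is 2-fold. Low signals are compressed on this scale, so changes of weakly read genes come out too small.

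Over the day, many more genes rose than fell. A gene was called, and is said to have risen or fallen, where it changed at least 2-fold with an adjusted p below 0.05 in limma (Benjamini-Hochberg over the 14044 genes tested). By this rule 441 genes rose (3.14%) and 72 fell (0.513%), 3.65% in all, so rises were 86.0% of the calls. With no minimum fold, 1681 genes were higher (12%) and 960 lower (6.84%). The median change of all genes tested was 0.05. Rises were 75.5% of the calls after quantile normalization, which moved that median to 0.00 and gave 315 rises and 102 falls. Of the 441 genes that rose, 166 (1.18% of the genes tested) were below the array median on all E9.5 arrays and 173 were already above it on all of them. In 86 (0.612%) the signal went from below the median on every E9.5 array to above it on every E10.5 array, and in 11 of the falls (0.0783%) it went the other way.

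Genes of the nervous system were numerous among the rises. Of 371 tested members of 12 lists of neural genes, 88 rose and 3 fell, which is 23.7% and 0.809% against 3.14% and 0.513% over all genes tested. Their median change was 0.46. On all 3 E10.5 arrays 191 of the 371 were above all 3 E9.5 arrays, against 19.8% of all genes tested. Of the 437 neural genes written into the lists, 408 had a usable probe set. Of the 88 that rose, 24 were below the array median on all E9.5 arrays and 39 were already above it. Because the RNA came from whole embryos, more neurons and more RNA per neuron cannot be told apart.

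**Figure D1:**
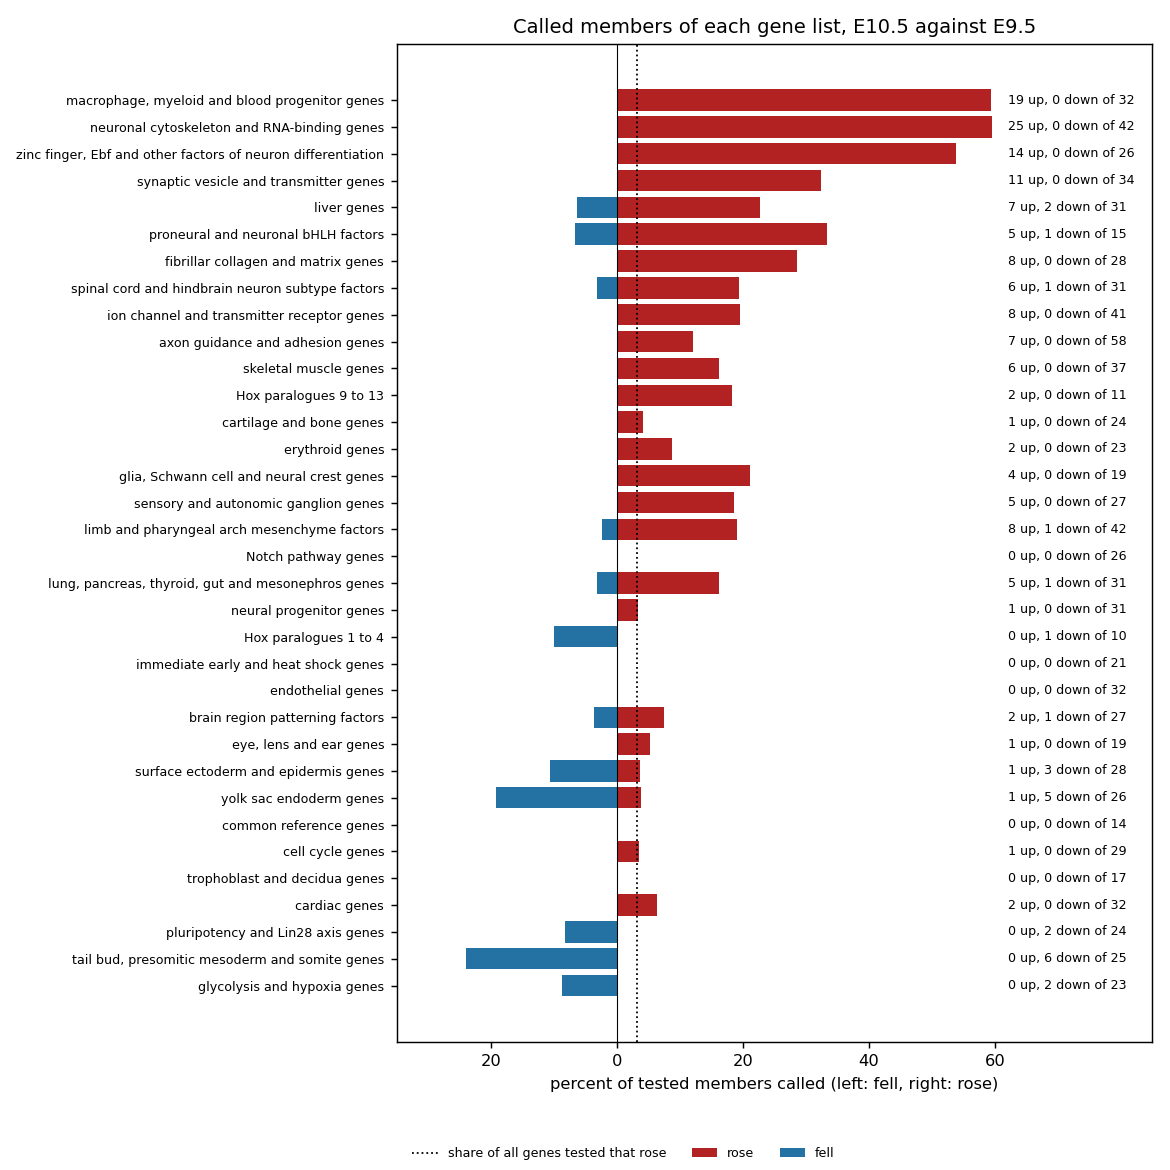
Share of the tested members of each gene list with at least 10 members tested that rose (right, red) or fell (left, blue) from E9.5 to E10.5, in percent, with the lists in the order of their median change and the counts beside them. The dotted line is the share of all 14044 genes that rose, 3.14%. The macrophage, neuronal cytoskeleton and neuron differentiation lists reach farthest to its right (59.4%, 59.5% and 53.8%), and the tail bud list farthest to the left (24.0%).

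The genes that build the neuron's shape rose most widely. Of 42 genes of the neuronal cytoskeleton and of neuronal RNA-binding proteins, 25 rose (59.5% against 3.14% of all genes tested) and none fell. Their median change was 1.08. Dcx, doublecortin, which binds the microtubules of migrating neurons, was at 410, 235 and 318 on the E9.5 arrays and at 3111, 2994 and 3037 on the E10.5 arrays. Every E10.5 array was far above every E9.5 array, and the change was 3.18 ± 0.22 (adjusted p = 4.4e-09). Rufy3, which takes part in setting up neuronal polarity and the axon, was at 138, 72.8 and 234 at E9.5 and at 1096, 1970 and 2250 at E10.5. Its change of 3.42 ± 0.29 (adjusted p = 9.5e-08) was the highest among all genes tested, although its arrays spread widely within both stages. The rank rests on the probe set chosen: the 4 other tested probe sets of Rufy3 changed by -0.42 to 2.1, and 3 of them were called as rises. Stmn2 and Stmn4 encode stathmins, which free tubulin from microtubules in growing neurites. Stmn2 went from 761, 497 and 479 to 3435, 3200 and 3558 (change 2.53 ± 0.12, adjusted p = 4.9e-11). Stmn4 went from 121, 15.7 and 41.0 to 497, 517 and 679 (change 2.98 ± 0.34, adjusted p = 3.6e-06), and its E9.5 arrays differed more among themselves than those of Stmn2.

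The neurofilament genes Nefl, Nefm and Ina were already well above the array median at E9.5 and rose further. Nefh, the heavy chain, was tested and not called. Nefl, the light chain, was at 1042, 773 and 773 at E9.5 and at 5039, 4318 and 4916 at E10.5 (change 2.44 ± 0.11, adjusted p = 1.1e-11). Nefm, the medium chain, went from 1247, 620 and 999 to 4892, 4740 and 4545 (change 2.33 ± 0.16, adjusted p = 4.4e-09). Ina, alpha-internexin, an intermediate filament of early neurons, went from 530, 363 and 407 to 2905, 2516 and 2607 (change 2.57 ± 0.13, adjusted p = 5.5e-11). On all 3 genes the array numbered 1 was the highest of E9.5, and no E9.5 array reached an E10.5 array. Prph, peripherin of peripheral neurons, was far lower, at 37.2, 24.8 and 54.7 and then 70.0, 66.4 and 128, and its change of 0.80 ± 0.33 did not pass (adjusted p = 0.10).

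Tubb3, the tubulin isotype most used as a neuron marker, went from 835, 658 and 735 to 2785, 2911 and 2967 (change 1.93 ± 0.10, adjusted p = 1.8e-10). Map2, which binds microtubules in dendrites, went from 266, 221 and 229 to 1402, 1048 and 869 (change 2.07 ± 0.16, adjusted p = 3.8e-08). The RNA-binding proteins of the Elav family, which mark neurons as they leave the cycle, rose by less: Elavl4 by 1.69 ± 0.17 and Elavl3 by 1.31 ± 0.29 (adjusted p = 8.9e-07 and 0.0034). Rbfox1, a splicing factor of more mature neurons, went from 17.0, 58.4 and 39.4 to 276, 375 and 239 (change 2.36 ± 0.28, adjusted p = 6.6e-06). It was below the median of its array at all 3 E9.5 samples and above it at all 3 E10.5 samples. Gap43, a growth cone protein, was high at both stages, with 1152, 994 and 1071 and then 2155, 2072 and 2321, and its change of 1.01 ± 0.09 (adjusted p = 1.7e-07) sat at the 2-fold limit, so that it fell to 0.96 without E9.5 replicate 2 or E10.5 replicate 3.

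**Figure D2:**
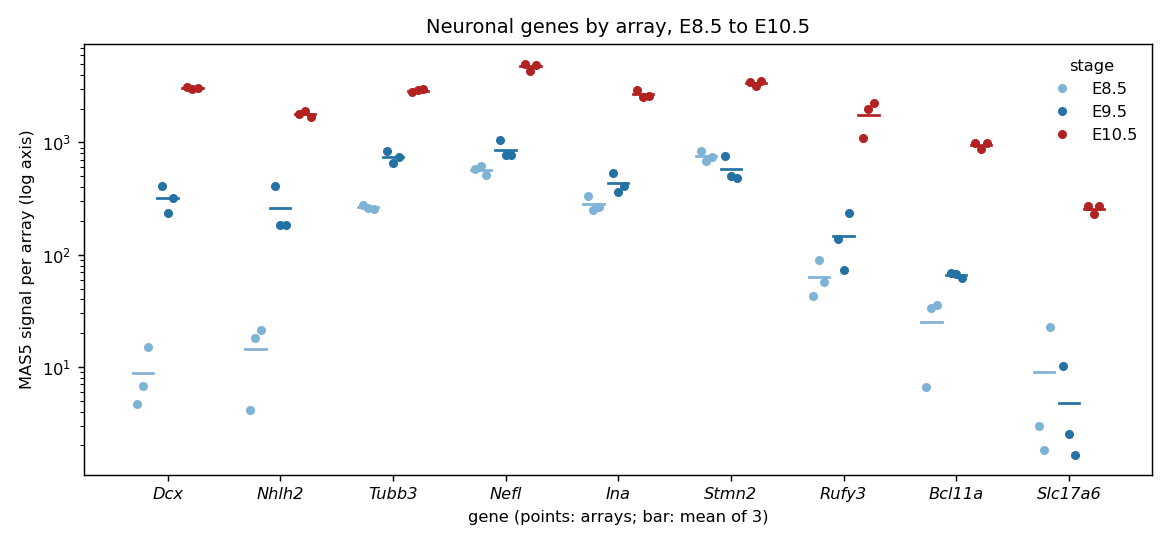
MAS5 signal (log axis) of 9 neuronal genes on each array of E8.5, E9.5 and E10.5, with points for arrays and bars for the mean of 3. In each gene the E10.5 points lie above all E9.5 points; Dcx, Nhlh2 and Tubb3 also climbed from E8.5 to E9.5, while Stmn2 and Slc17a6 did not.

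Transcription factors of neuron formation behaved in more than 1 way. Of 15 tested bHLH factors 5 rose and 1 fell (33.3% and 6.67%, against 3.14% and 0.513% of all genes tested). Their median change was 0.67. Nhlh2, which is made in young postmitotic neurons, went from 412, 183 and 183 to 1802, 1893 and 1699 (change 2.77 ± 0.24, adjusted p = 1.4e-07), and its relative Nhlh1 from 102, 132 and 80.4 to 261, 340 and 352 (change 1.40 ± 0.30, adjusted p = 0.0024). Atoh1, the factor of dorsal interneurons and of the rhombic lip, rose by 1.51 ± 0.27 and Ptf1a, of dorsal inhibitory neurons and pancreas, by 1.48 ± 0.30 (adjusted p = 0.0005 and 0.0017). Neurog1, Neurog2 and Neurod1 were well above the array median at E9.5 and did not pass the rule. The neurogenins commit progenitors to the neuronal fate. Neurog1 was at 614, 489 and 545 and then 908, 950 and 797 (change 0.67 ± 0.25, adjusted p = 0.07). Neurog2 was at 627, 547 and 564 and then 882, 1005 and 870 (change 0.64 ± 0.20, adjusted p = 0.027, under 2-fold). Neurod1, which follows the neurogenins in sensory and other neurons, changed by 0.76 ± 0.21 (adjusted p = 0.015, also under 2-fold). In these 3 genes each E10.5 array was nevertheless above each E9.5 array.

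Olig2, which marks the progenitors of motor neurons, was the bHLH factor that fell, from 326, 307 and 381 to 141, 130 and 188 (change -1.03 ± 0.24, adjusted p = 0.0044). All E10.5 arrays were below all E9.5 arrays, but the size lay so near the limit that leaving out E9.5 replicate 3, E10.5 replicate 1 or E10.5 replicate 2 brought it to -0.95, -0.99 or -0.94.

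Of 26 zinc finger, Ebf, POU and other factors of neuron differentiation 14 rose (53.8% against 3.14% of all genes tested) and none fell. Their median change was 1.06. Bcl11a and Bcl11b, zinc finger factors of later neuron subtype and axon development, were low at E9.5. Bcl11a went from 69.3, 67.0 and 61.6 to 979, 879 and 994 (change 3.41 ± 0.23, adjusted p = 4.4e-09), with very close arrays within each stage. Bcl11b went from 41.5, 11.3 and 60.7 to 397, 403 and 536 (change 2.96 ± 0.25, adjusted p = 6.4e-08). The zinc finger factors of newborn neurons Myt1, Insm1 and Scrt1 rose by 1.98 ± 0.34, 1.44 ± 0.30 and 1.89 ± 0.36 (adjusted p = 0.00033, 0.0019 and 0.00092). The 3 Ebf factors, which act as neurons leave the ventricular zone, were already at 148 or above on every E9.5 array. Ebf1, Ebf2 and Ebf3 rose by 1.34 ± 0.18, 1.09 ± 0.20 and 1.07 ± 0.17 (adjusted p = 2.4e-05, 0.00062 and 0.00017). With a pseudocount 4 times larger the list had 7 rises, and with the filter at the 75th percentile or after averaging a gene's probe sets it had 8.

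Factors that give neurons of the spinal cord and hindbrain their identity rose in 6 of 31 cases and fell in 1 (median change 0.55). These shares were 19.4% and 3.23%, against 3.14% and 0.513% of all genes tested. Lhx1, a LIM factor of several interneuron classes that is also made in the mesonephros, went from 32.6, 38.7 and 66.8 to 283, 373 and 295 (change 2.27 ± 0.17, adjusted p = 1.4e-08). Lhx9, Pou4f1 and Foxp2 rose by 1.31 ± 0.26, 1.27 ± 0.23 and 1.21 ± 0.15 (adjusted p = 0.0013, 0.00067 and 1.1e-05). Pou4f1 marks sensory neurons and Lhx9 and Foxp2 mark interneurons, while Lhx9 is also a limb factor. Isl1, made in motor and sensory neurons and in the heart, was at 1291, 1068 and 1010 and then 2022, 2041 and 1776 (change 0.78 ± 0.11, adjusted p = 4.1e-05, under 2-fold). The motor neuron factors Mnx1 and Lhx3 were at most at 151 on all 6 arrays and changed by 0.11 ± 0.33 and 0.62 ± 0.32 (adjusted p = 0.86 and 0.20). Nkx2-9, a factor of the ventral midline region, fell from 442, 432 and 347 to 103, 206 and 121 (change -1.40 ± 0.36, adjusted p = 0.01), a call that was lost without the arrays numbered 1 (-1.17, adjusted p = 0.09).

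Of 27 factors that pattern brain regions 2 rose and 1 fell (7.41% and 3.7%, against 3.14% and 0.513% of all genes tested), and the median change was -0.01. Eomes, a factor of intermediate progenitors of the cortex and, earlier, of the gastrulating embryo, went from 20.3, 3.66 and 13 to 158, 190 and 249 (change 2.56 ± 0.25, adjusted p = 6.4e-07). Lhx8, of basal forebrain neurons and of oral mesenchyme, went from 137, 74.0 and 69.3 to 329, 349 and 436 (change 1.77 ± 0.24, adjusted p = 3.2e-05). Six6, of the optic and pituitary primordia, fell by 1.10 on the log2 scale (SE 0.28, adjusted p = 0.009), and by 0.98 without E10.5 replicate 3. Otx2, Dlx2 and En2, which mark forebrain and midbrain territories, changed by -0.16 ± 0.17, -0.09 ± 0.27 and -0.28 ± 0.18 and did not pass (adjusted p = 0.58, 0.87 and 0.31).

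Of 31 tested genes of neural progenitors 1 rose and none fell. This was 3.23% against 3.14% of all genes tested, and the median change was 0.05, equal to that of all genes. Without E9.5 replicate 2 there were 2 rises. Sox2, the general factor of neural progenitors, was at 4050, 4527 and 4954 and then 3430, 3982 and 4282 (change -0.21 ± 0.12, adjusted p = 0.24), so that the stages overlapped. Pax6, which marks progenitors of cord, forebrain and eye, was at 1007, 874 and 977 and then 719, 696 and 560 (change -0.52 ± 0.17, adjusted p = 0.041), lower on every E10.5 array but by less than 2-fold. Nes, nestin of progenitor processes, changed by 0.74 ± 0.14 (adjusted p = 0.00092). The member that rose was Fabp7, a fatty acid binding protein of radial glia, from 1821, 1878 and 1896 to 5874, 6250 and 6875 (change 1.75 ± 0.11, adjusted p = 1.1e-09). None of 26 genes of the Notch pathway, which holds progenitors undifferentiated, was called in limma. Without the fold limit 6 had an adjusted p below 0.05 and all 6 were higher, against 12% of all genes tested that were higher. The receptor Notch1 and the ligand Dll3 changed by 0.67 ± 0.15 and 0.65 ± 0.18 (adjusted p = 0.0039 and 0.017), while the ligand Dll1 and the target gene Hes1 changed by 0.05 ± 0.12 and -0.01 ± 0.15.

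Genes of synapses and transmitters rose in 11 of 34 cases (32.4% against 3.14% of all genes tested) and fell in none (median change 0.69). Slc17a6, the vesicular glutamate transporter of early excitatory neurons, was at 10.1, 2.51 and 1.64 at E9.5, which is near the floor of the arrays, and at 269, 230 and 269 at E10.5. Its change was 3.21 ± 0.25 (adjusted p = 3.8e-08), and it was as low at E8.5, with a mean of 9.12. Snap25, a part of the vesicle fusion machinery, went from 87.4, 8.77 and 44.7 to 338, 327 and 204 (change 2.25 ± 0.34, adjusted p = 0.00011). Scg3 and Scg2, granins of secretory granules, rose by 2.18 ± 0.27 and 1.95 ± 0.33 (adjusted p = 8.6e-06 and 0.00025). The inhibitory marker Gad1, which makes GABA, was at 34.3, 41.8 and 20.7 and then 60.5, 50.4 and 93.2 (change 0.68 ± 0.23, adjusted p = 0.04, under 2-fold). Slc18a3, the vesicular acetylcholine transporter of motor neurons, changed by 0.42 ± 0.40 and its stages overlapped (adjusted p = 0.53). Syt4, a synaptotagmin, was called (change 1.20 ± 0.40, adjusted p = 0.042), but the call was lost when any of 5 of the 6 arrays was left out, with adjusted p-values of 0.07 to 0.23. With a pseudocount 4 times larger 4 members of this list rose.

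Of 41 ion channels and receptors 8 rose (19.5% against 3.14% of all genes tested) and none fell (median change 0.53). The sodium channel subunit Scn3b went from 20.7, 59.6 and 22.1 to 232, 179 and 175 (change 1.93 ± 0.28, adjusted p = 7.1e-05), and the calcium channel subunit Cacna2d1 from 64.9, 86.3 and 91.7 to 346, 321 and 256 (change 1.64 ± 0.15, adjusted p = 2.4e-07). Chrna3, the nicotinic receptor subunit of autonomic ganglia, went from 137, 96.8 and 90.8 to 319, 292 and 263 (change 1.25 ± 0.22, adjusted p = 0.00047). Most members read low signals, and this count rested on the probe set chosen: 1 member rose when all probe sets of a gene were averaged, and 2 with a pseudocount 4 times larger.

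Guidance and adhesion genes rose in 7 of 58 cases (12.1% against 3.14% of all genes tested) and fell in none. Of the 58, 53 had a change above 0 (median 0.38), against 7941 of all 14044 genes tested. Dcc, the netrin receptor of commissural axons, went from 110, 140 and 140 to 822, 777 and 817 (change 2.42 ± 0.14, adjusted p = 4.1e-10). Epha3, an ephrin receptor of motor axons and of mesenchyme, went from 559, 333 and 406 to 2193, 2082 and 2178 (change 2.28 ± 0.20, adjusted p = 1.7e-07). Cntn2, an adhesion molecule of early commissural and motor axons, went from 66.0, 55.3 and 51.8 to 289, 201 and 296 (change 1.77 ± 0.27, adjusted p = 0.0001). Robo3, which lets axons cross the midline, rose by 1.33 ± 0.30 (adjusted p = 0.0034). Of the diffusible cues, Slit2 changed by 0.92 ± 0.10 (adjusted p = 1.8e-06, under 2-fold) and Sema3a by 0.04 ± 0.14 (adjusted p = 0.90). Averaging a gene's probe sets left 3 rises in this list.

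Among 27 genes of sensory and autonomic ganglia 5 rose and none fell (median change 0.29). Sst, somatostatin, was tight within stages at 177, 165 and 171 and then 578, 565 and 634 (change 1.65 ± 0.35, adjusted p = 0.0021). Th, tyrosine hydroxylase of catecholamine neurons, went from 41.5, 48.2 and 45.7 to 120, 201 and 245 (change 1.55 ± 0.29, adjusted p = 0.00085). Gfra1, a receptor for GDNF, rose by 1.51 ± 0.24 (adjusted p = 0.00016), while its partner Ret changed by 0.07 ± 0.18 (adjusted p = 0.84). Of 19 genes of glia, Schwann cells, melanoblasts and other crest cells 4 rose (21.1% against 3.14% of all genes tested) and none fell. Nfia and Nfib, which act at the onset of glia formation, rose by 1.71 ± 0.19 and 1.52 ± 0.23 (adjusted p = 2.6e-06 and 7.7e-05). Pmel and Dct, of pigment cells, rose by 1.62 ± 0.18 and 1.22 ± 0.30 (adjusted p = 3.2e-06 and 0.0061), while Sox10, of crest and glia, changed by 0.02 ± 0.27 (adjusted p = 0.98).

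The day from E9.5 to E10.5 was then set beside the day from E8.5 to E9.5 by testing the difference between the steps for each gene. The 2 steps share the E9.5 arrays, so a high E9.5 value raises 1 step and lowers the other. On the earlier of these days 349 genes rose (2.49%) and 235 fell (1.67%), 4.16% in all. The step was larger, that is more positive, from E9.5 to E10.5 for 253 genes (1.8%) and smaller for 78 (0.555%), by the same limits of 2-fold and adjusted p. The number of genes with a larger step depended on the arrays used. It was 113 from the 3 stages alone, 123 from the 12 arrays up to E10.5, and 339 without the arrays numbered 1 of E7.5 to E10.5.

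Calls among the bHLH factors and among the structural genes lay on opposite sides of this test. Of the 15 bHLH factors 5 had a smaller step (against 0.555% of all genes tested) and none a larger one. The day before, 10 of the 15 had risen, against 2.49% of all genes tested. Neurog1 rose by 3.41 ± 0.25 from E8.5 to E9.5 and changed by 0.67 ± 0.25 after, a step difference of -2.75 ± 0.43 (adjusted p = 0.00063). The same was seen in Neurod4 (3.15 ± 0.26, then 0.28 ± 0.26, adjusted p of the difference 0.00057) and Neurod1 (2.94 ± 0.21, then 0.76 ± 0.21, adjusted p 0.0011). Olig2 rose by 1.89 ± 0.24 and then fell (step difference -2.92 ± 0.41, adjusted p = 0.00019). These 4 kept their smaller step under each alternative that tested them with 1 value per gene, whereas Neurog2 (-1.27 ± 0.34, adjusted p = 0.043) lost it under 15. With the filter at the 75th percentile, which tests fewer genes, the list had 3 smaller steps.

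Of the 42 cytoskeleton and RNA-binding genes 12 had a larger step (against 1.8% of all genes tested) and none a smaller one. Stmn2 changed by -0.39 ± 0.12 the day before and by 2.53 ± 0.12 on the day studied, a step difference of 2.92 ± 0.21 (adjusted p = 1e-07). Ina changed by 0.56 ± 0.13 and then 2.57 ± 0.13 (difference 2.01 ± 0.22, adjusted p = 1.3e-05), and Nefl by 0.56 ± 0.11 and then 2.44 ± 0.11 (difference 1.88 ± 0.18, adjusted p = 3.5e-06). The 3 kept the call under each alternative that tested them with 1 value per gene. The count of 12 became 7 without E9.5 replicate 2, 7 from the 3 stages alone and 5 from the 12 arrays up to E10.5. Dcx and Nhlh2 were on neither side. Dcx changed by 3.30 ± 0.22 and then 3.18 ± 0.22 (difference -0.12 ± 0.38, adjusted p = 0.93), and Nhlh2 by 2.75 ± 0.24 and then 2.77 ± 0.24 (difference 0.02 ± 0.42, adjusted p = 0.99). Tubb3 changed by 1.40 ± 0.10 and then 1.93 ± 0.10, and its difference of 0.53 ± 0.18 did not pass (adjusted p = 0.12).

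Larger steps that held under each alternative that tested the gene with 1 value were also found in Slc17a6 (difference 3.36 ± 0.44, adjusted p = 8.9e-05), Bcl11a (2.51 ± 0.40, adjusted p = 0.00068), Dcc (1.54 ± 0.24, adjusted p = 0.00057) and Eomes (3.15 ± 0.44, adjusted p = 0.00017). Lhx1 had one of the largest: from a mean of 252 at E8.5 it changed by -1.97 ± 0.17 and then by 2.27 ± 0.17 (difference 4.25 ± 0.29, adjusted p = 4.1e-08). Gsc, goosecoid, an organizer gene that is made again in pharyngeal arch and limb mesenchyme, was at 3.05, 3.92 and 4.94 at E9.5 and at 134, 150 and 159 at E10.5 (difference 3.68 ± 0.46, adjusted p = 5.4e-05). Several of the other large step differences were of genes that had fallen from E8.5 to E9.5 and were not called after, such as Prl8a2, a decidual prolactin, and the yolk sac genes Apom, Slc2a2 and Slc13a4. Apom changed by -3.53 ± 0.22 and then 0.53 ± 0.22, and Prl8a2 by -4.50 ± 0.36 and then 0.03 ± 0.36. The lists with the most larger steps were yolk sac endoderm (16 of 26 genes) and liver (14 of 31), against 1.8% of all genes tested. One liver gene, 1 of 31, had a smaller step. In these lists 23 and 13 genes had fallen from E8.5 to E9.5.

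**Figure D3:**
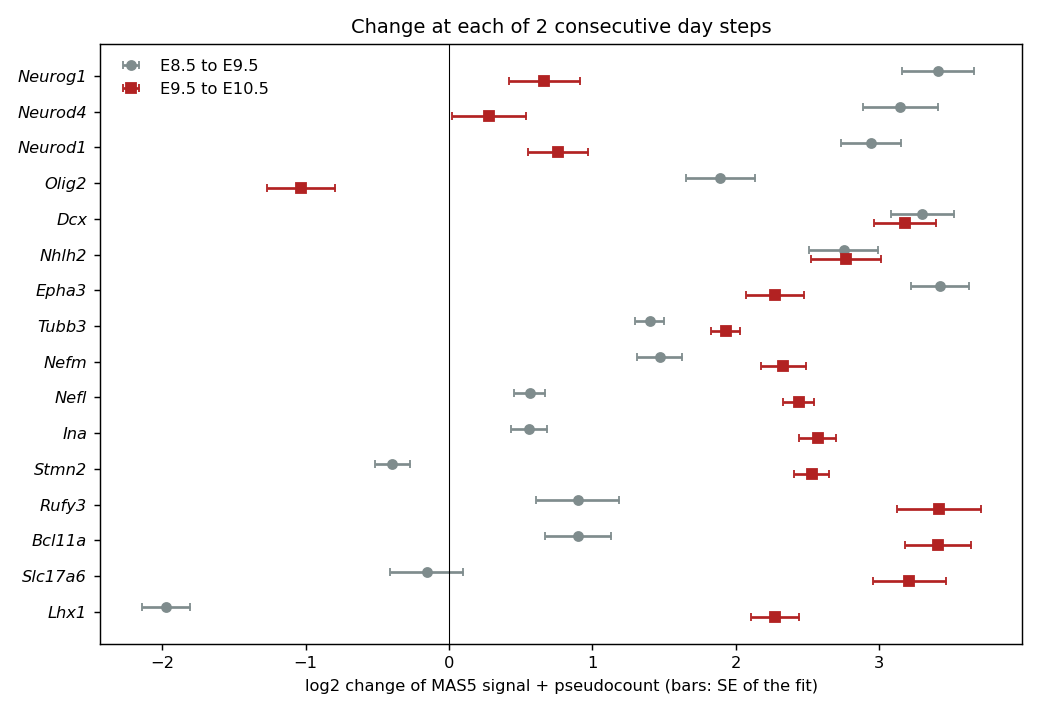
Log2 change of MAS5 signal + pseudocount from E8.5 to E9.5 (grey circles) and from E9.5 to E10.5 (red squares) for 16 genes of neuron formation, with bars for the standard error of the fit. The proneural factors at the top changed mostly in the first step, Dcx and Nhlh2 by about the same in both, and the genes from Nefl to Slc17a6 mostly in the second. Lhx1, at the bottom, went down in the first step and up in the second.

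The largest share of rises outside the neural lists was in genes of macrophages and other myeloid and blood progenitor cells, where 19 of 32 rose and none fell (59.4% against 3.14% of all genes, median change 1.14). The summed signal of the 32 genes was 4486 to 4665 at E9.5 and 9883 to 11108 at E10.5. Csf1r, the receptor of the macrophage growth factor, went from 154, 147 and 115 to 761, 785 and 880 (change 2.35 ± 0.20, adjusted p = 8.6e-08). C1qc, a complement subunit made by tissue macrophages, went from 2.27, 3.47 and 2.67 to 199, 121 and 155 (change 2.66 ± 0.20, adjusted p = 1.4e-08). Tyrobp, a signalling adaptor of myeloid cells, went from 47.0, 12 and 14.9 to 220, 223 and 217 (change 2.35 ± 0.27, adjusted p = 3.4e-06). Mrc1, the mannose receptor, went from 36.6, 40 and 48.9 to 249, 249 and 302 (change 2.11 ± 0.33, adjusted p = 0.00013). Ctss, a lysosomal protease of macrophages outside the list, rose by 2.71 ± 0.24 (adjusted p = 1.9e-07).

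Of the 19 genes of this list that rose, 11 were below the array median on all E9.5 arrays and 9 of these crossed to above it on all E10.5 arrays. Mpo, of granulocyte and monocyte precursors, rose by 1.14 ± 0.27 (adjusted p = 0.0049) and Pf4, of megakaryocytes, by 1.11 ± 0.15 (adjusted p = 2.2e-05). Mpo changed by 0.93 without E10.5 replicate 3. Spi1, the transcription factor PU.1 of myeloid cells, was at 30.6, 3.78 and 55.4 and then 70.3, 65.2 and 130 (change 1.11 ± 0.32, adjusted p = 0.018), a call lost without E9.5 replicate 2 (adjusted p = 0.12) or E10.5 replicate 3 (0.10). Runx1, of blood stem cell formation, changed by -0.45 ± 0.32 (adjusted p = 0.38). The step was larger than that of the day before in 10 of the 32, against 1.8% of all genes tested. Among the 10 were C1qc (difference 2.72 ± 0.34, adjusted p = 5.3e-05) and Csf1r (2.11 ± 0.34, adjusted p = 0.00092). That count was 5 without E9.5 replicate 2, 6 without E9.5 replicate 1 or E8.5 replicate 1, 4 after quantile normalization and 3 from the 3 stages alone, while C1qc and Csf1r kept the call under each of these.

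The motif GAGGAAGT, of the type bound by PU.1 and other Ets factors, was searched on both strands in the same windows before the starts. It was in 2.44% of all windows, in 2.25% of those of genes tested and in 4 of 18 windows (22.2%) of the macrophage genes that rose. The 4 genes, picked for having it, are C1qc, Prtn3, Mpo and Pf4, and 80 bases of each window are printed 5′ to 3′ on the strand of the gene with the motif or its reverse complement in capitals. They lie at chr4:136893060-136893139 (minus), chr10:79879542-79879621 (plus), chr11:87793534-87793613 (plus) and chr5:90772355-90772434 (plus) of GRCm38.p6.
C1qc: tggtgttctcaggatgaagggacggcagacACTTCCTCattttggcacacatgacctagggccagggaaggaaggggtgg
Prtn3: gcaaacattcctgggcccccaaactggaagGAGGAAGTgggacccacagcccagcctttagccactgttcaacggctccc
Mpo: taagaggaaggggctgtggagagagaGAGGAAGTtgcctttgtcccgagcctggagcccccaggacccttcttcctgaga
Pf4: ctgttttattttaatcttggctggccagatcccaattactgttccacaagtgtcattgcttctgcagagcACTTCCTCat
With so few windows the share is a description of these genes, and the match of letters does not show binding.

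Liver genes rose in 7 of 31 cases and fell in 2 (median change 0.67). These shares were 22.6% and 6.45%, against 3.14% and 0.513% of all genes tested. Alb, albumin, went from 71.8, 30.3 and 111 to 533, 567 and 760 (change 2.81 ± 0.29, adjusted p = 1.3e-06), and Serpina6, a steroid-binding plasma protein, from 18.0, 8.78 and 17.9 to 259, 245 and 310 (change 2.87 ± 0.26, adjusted p = 2.5e-07). Afp, alpha-fetoprotein, is made by both fetal liver and yolk sac. It was at 2087, 1851 and 3985 and then 5745, 6990 and 7628 (change 1.43 ± 0.23, adjusted p = 0.00017), after a mean of 6830 at E8.5. Under quantile normalization 3 of the list rose. E9.5 replicate 3 had the highest signals of this stage in the yolk sac genes Apoc2 (47.1, 32.4 and 242), Apom (84.6, 95.6 and 217), Amn (58.0, 59.6 and 169) and Afp. The part of yolk sac tissue in these changes was not tested. Without that array the list of liver genes had 9 rises.

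Yolk sac endoderm genes had mostly fallen earlier: 23 of 26 fell from E8.5 to E9.5 (median change -2.55), and 5 fell and 1 rose from E9.5 to E10.5 (median -0.04). The 5 and the 1 were 19.2% and 3.85%, against 0.513% and 3.14% of all genes tested. Amn, amnionless of the endocytic epithelium, fell from the values above to 14.2, 8.89 and 33.5 (change -1.36 ± 0.25, adjusted p = 0.0006) and by 0.96 without E9.5 replicate 3, when 3 of the list fell and 4 rose. Car4, a carbonic anhydrase, was even between arrays, at 970, 957 and 1016 and then 157, 156 and 126 (change -2.55 ± 0.12, adjusted p = 2e-11). None of the 17 tested trophoblast and decidua genes was called in limma. With no fold limit 2 were higher and 1 lower at an adjusted p below 0.05, against 12% and 6.84% of all genes tested.

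**Figure D4:**
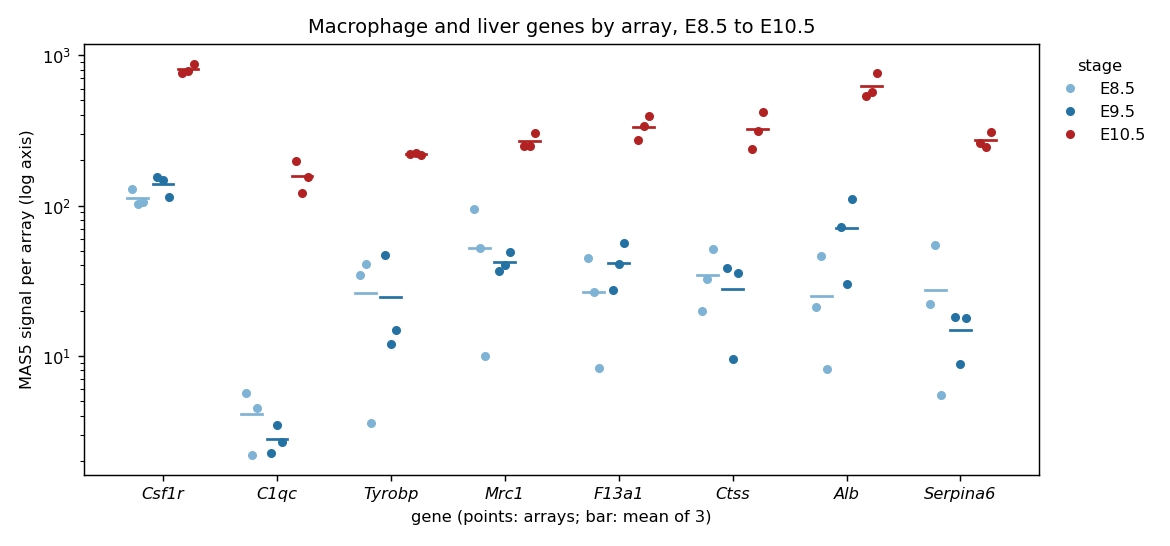
MAS5 signal (log axis) of macrophage genes and of the liver genes Alb and Serpina6 on each array of E8.5, E9.5 and E10.5, with points for arrays and bars for the mean of 3. The E10.5 points lie above all points of both earlier stages in each gene, and C1qc lies under 10 on all E8.5 and E9.5 arrays.

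Mesodermal tissues of the limb, trunk and arches changed in part. Of 42 factors of limb and pharyngeal arch mesenchyme 8 rose and 1 fell (median change 0.20). These shares were 19.0% and 2.38%, against 3.14% and 0.513% of all genes tested. Shox2, of proximal limb and palate, went from 332, 288 and 311 to 1156, 1201 and 1240 (change 1.87 ± 0.12, adjusted p = 2e-09), and Tbx15, of limb and trunk mesenchyme, from 87.6, 47.7 and 62.2 to 197, 409 and 364 (change 1.89 ± 0.26, adjusted p = 2.9e-05). Gsc rose by 2.54 ± 0.27 (adjusted p = 1.3e-06) and Prrx1, a general factor of limb mesenchyme, by 1.11 ± 0.15 (adjusted p = 2.3e-05). Shh, the signal of the limb's posterior margin and of the floor plate, changed by 0.10 ± 0.10 (adjusted p = 0.55). Tbx5, of forelimb and heart, was at 145, 95.8 and 24.7 and then 223, 234 and 250 (change 1.36 ± 0.37, adjusted p = 0.013), a call lost without E9.5 replicate 3 (0.86, adjusted p = 0.09). Of the 5′ Hox genes of paralogue groups 9 to 13, 2 of 11 rose (18.2% against 3.14% of all genes tested), Hoxd12 and Hoxa10. Hoxd12 changed by 1.15 ± 0.32 and Hoxa10 by 1.01 ± 0.26 (adjusted p = 0.014 and 0.0085). Hoxd12 lost its call without E9.5 replicate 3 (adjusted p = 0.066), and Hoxa10 without any array except E9.5 replicate 2 or E10.5 replicate 3, with changes of 0.89 to 0.99.

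Skeletal muscle genes rose in 6 of 37 cases (16.2% against 3.14% of all genes tested) and fell in none (median change 0.35). The fast myosin light chain Mylpf went from 210, 236 and 276 to 1171, 1093 and 982 (change 2.06 ± 0.16, adjusted p = 3.1e-08), and the embryonic myosin heavy chain Myh3 from 118, 134 and 127 to 417, 572 and 408 (change 1.68 ± 0.17, adjusted p = 1.3e-06). Myog, the factor of muscle cell differentiation, went from 153, 119 and 155 to 528, 380 and 370 (change 1.42 ± 0.22, adjusted p = 0.00013). Myf5, which acts before it, changed by 0.78 ± 0.31 (adjusted p = 0.089). Of 32 heart genes 2 rose, Tbx5 and Sln, and none fell (6.25% against 3.14% of all genes tested). After quantile normalization none rose, and with scaling by the 75th percentile 1 rose and 1 fell. In all, 20 of the 32 had a change below 0 (median -0.18), against 6103 of all 14044 genes tested. The summed signal of the 32 was 64491 to 65982 at E9.5 and 48142 to 57141 at E10.5. Sln, sarcolipin of the atria, changed by 1.00 ± 0.21 (adjusted p = 0.00096), and by 0.82, 0.87 or 0.96 without E9.5 replicate 3, E10.5 replicate 2 or E10.5 replicate 3. Myh7 and Myl2, contractile genes of the ventricle, each changed by 0.04 (SE 0.12 and 0.18, adjusted p = 0.88 and 0.91). Of 28 collagen and matrix genes 8 rose (28.6% against 3.14% of all genes tested) and none fell (median change 0.66). Among the 8 were Ogn (1.64 ± 0.27), Lox (1.52 ± 0.25) and Mfap4 (1.46 ± 0.19), with adjusted p-values of 0.00019, 0.00018 and 1.9e-05. Col3a1, a fibrillar collagen, had changed by 2.59 ± 0.15 the day before and changed by 0.55 ± 0.15 here (step difference -2.04 ± 0.26, adjusted p = 7.3e-05).

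Of 23 erythroid genes 2 rose and none fell (8.7% against 3.14% of all genes tested), Rhd by 1.36 ± 0.18 and Hemgn by 1.14 ± 0.20 (adjusted p = 2.5e-05 and 0.00046), and Hemgn changed by 0.90 without E10.5 replicate 3, which left 1 rise. The embryonic globin Hba-x was very high at both stages, between 37453 and 49595 on all 6 arrays (change 0.04 ± 0.33, adjusted p = 0.95). None of 32 endothelial genes was called in limma. With no fold limit 3 were higher and 0 lower at an adjusted p below 0.05, against 12% and 6.84% of all genes tested. Cdh5 and Kdr, which mark vessels, changed by 0.21 ± 0.31 and 0.34 ± 0.15 (adjusted p = 0.71 and 0.14).

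Several of the largest falls were in regulators made in the early embryo, beside the yolk sac gene Car4 and the Y-linked Eif2s3y. Prtg, protogenin, a receptor of early neural tube and mesoderm, went from 4282, 4047 and 4046 to 605, 441 and 392 (change -3.06 ± 0.13, adjusted p = 9.4e-12), the largest fall of all genes tested. Nr6a1, a nuclear receptor of the early embryo that acts in trunk development, went from 1368, 1053 and 1663 to 214, 190 and 164 (change -2.67 ± 0.19, adjusted p = 5.7e-09). Lin28a, an RNA-binding protein that blocks the maturation of let-7 microRNAs, went from 5932, 5747 and 5877 to 1180, 1044 and 795 (change -2.53 ± 0.20, adjusted p = 4.5e-08). Trim71, itself a target of let-7, went from 1124, 1400 and 1421 to 485, 485 and 345 (change -1.54 ± 0.19, adjusted p = 8.4e-06). On the day before, Prtg, Nr6a1, Lin28a and Trim71 changed by -1.05 ± 0.13, -1.70 ± 0.19, -1.29 ± 0.20 and -0.59 ± 0.19, and the first 3 of these were falls by the same rule. The fall of Prtg was steeper on the later day (step difference -2.01 ± 0.22, adjusted p = 1.3e-05), whereas the step differences of Nr6a1, Lin28a and Trim71 did not pass (adjusted p = 0.11, 0.059 and 0.13). In the list of 24 pluripotency and Lin28 axis genes Lin28a and Trim71 were the 2 that fell (8.33% against 0.513% of all genes tested). Dnmt3b, a DNA methyltransferase, changed by -0.74 ± 0.17 (adjusted p = 0.0047, under 2-fold).

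Genes of the tail bud and of forming somites fell in 6 of 25 cases and rose in none (24.0% against 0.513%, median change -0.20). The Cdx factors maintain the axial progenitors, and all 3 fell. Cdx2 went from 250, 346 and 299 to 50.2, 78.7 and 5.10 (change -2.36 ± 0.31, adjusted p = 1.7e-05). Cdx1 went from 68.3, 76.5 and 64.4 to 1.32, 2.33 and 7.62 (change -1.69 ± 0.22, adjusted p = 1.6e-05), and Cdx4 from 171, 222 and 119 to 40.9, 27.3 and 47.2 (change -1.59 ± 0.26, adjusted p = 0.0002). Cdx2 and Cdx1 also stand in gut and yolk sac lists, since they mark endoderm. Nkx1-2, of the stem zone beside the primitive streak, fell by 1.47 on the log2 scale (SE 0.19, adjusted p = 1.9e-05). Meox1, of the somite, went from 1850, 1542 and 1704 to 1051, 568 and 538 (change -1.27 ± 0.20, adjusted p = 0.00012). Msgn1, of the presomitic mesoderm, was called at -1.07 ± 0.32 (adjusted p = 0.026), a call lost without E9.5 replicate 3, E10.5 replicate 1 or E10.5 replicate 3 (adjusted p = 0.12, 0.13 and 0.064). Tbx6 changed by -0.80 ± 0.18 (adjusted p = 0.0038) and was lower on every E10.5 array. The anterior Hox gene Hoxb1 fell from 367, 381 and 316 to 128, 121 and 143 (change -1.28 ± 0.16, adjusted p = 9.1e-06), the only call among 10 genes of paralogue groups 1 to 4.

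The glucose transporters fell from high levels. Slc2a3 went from 8917, 9559 and 9850 to 3826, 3627 and 3795 (change -1.33 ± 0.08, adjusted p = 1.4e-09), and Slc2a1 from 10325, 12379 and 12125 to 4745, 5204 and 5396 (change -1.18 ± 0.10, adjusted p = 5.3e-08). They were the 2 called members of 23 genes of glycolysis and hypoxia (8.7% fell, against 0.513% of all genes tested). Of the 23, 19 had a change below 0 (median -0.39), against 6103 of all 14044 genes tested. The simple epithelial keratins Krt8, Krt18 and Krt19 fell as well, with changes of -1.33 ± 0.13, -1.08 ± 0.07 and -1.27 ± 0.23 (adjusted p = 4e-07, 4.4e-09 and 0.00064). They were the 3 falls among 28 surface ectoderm and epidermis genes (10.7% against 0.513% of all genes tested). In that list 1 gene rose and the median change was -0.03. Krt5, Krt15, Trp63 and Epcam were not called. Phlda2, an imprinted growth regulator of the placenta, went from 590, 650 and 787 to 151, 144 and 134 (change -2.04 ± 0.14, adjusted p = 4.4e-09). Among 29 cell cycle genes the only call was Cdkn1c, an imprinted cyclin-dependent kinase inhibitor of cells that leave the cycle, which rose from 5995, 4758 and 4831 to 11259, 11190 and 10936 (change 1.10 ± 0.13, adjusted p = 5.1e-06). This 1 call was 3.45% of the list, against 3.14% of all genes tested. Mki67, a proliferation marker, changed by 0.45 ± 0.08 (adjusted p = 0.00034), but 20 of the 29 cell cycle genes had a change below 0 (median -0.13). With no fold limit, 5 of the 29 were higher and 5 lower at an adjusted p below 0.05 in limma.

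**Figure D5:**
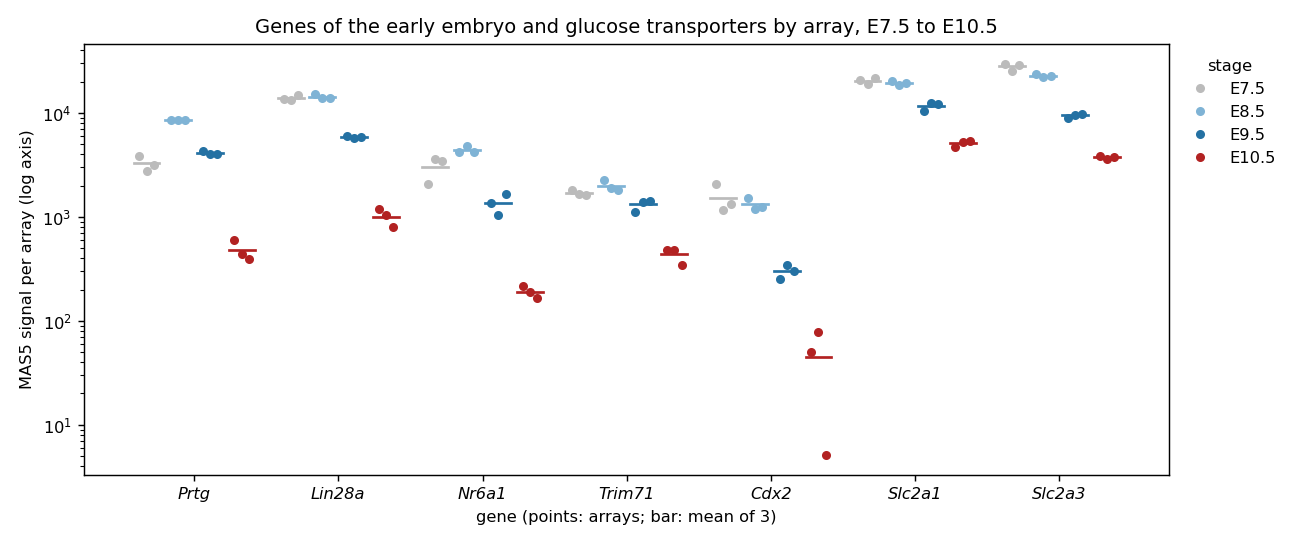
MAS5 signal (log axis) of genes that fell from E9.5 to E10.5, on each of the 12 arrays up to E10.5, with points for arrays and bars for the mean of 3. In each of the 7 genes the E10.5 points lie below all points of the earlier stages, and Cdx2 has the widest spread at E10.5, from 5.10 to 78.7.

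The pools also differed in sex-linked genes. Xist, the RNA of the inactive X chromosome of females, was at 298, 1270 and 541 at E9.5 and at 3472, 1670 and 2599 at E10.5 (change 2.01 ± 0.33, adjusted p = 0.00022). The Y-linked Eif2s3y was at 739, 413 and 669 and then 120, 289 and 63.3 (change -1.95 ± 0.29, adjusted p = 8.1e-05). Kdm5d and Uty, also on the Y, were called at -1.53 ± 0.33 and -1.21 ± 0.32 (adjusted p = 0.0023 and 0.011), with stages that overlapped because E10.5 replicate 2 was at 334 and 211. Uty lost its call without E9.5 replicate 3, E10.5 replicate 1 or E10.5 replicate 3 (adjusted p = 0.063, 0.068 and 0.061). With a gene's probe sets averaged none of the 3 Y-linked genes kept its call: Eif2s3y changed by -0.77, Kdm5d by -0.87 and Uty by -0.46 (limma adjusted p = 0.04, 0.022 and 0.12). The E10.5 pools read higher in the female and lower in the male transcripts, and the part of sex in the other changes was not tested. Immediate early and heat shock genes, which respond to handling of tissue, had no call in limma among 21 tested. With no fold limit 4 were higher and 3 lower at an adjusted p below 0.05, against 12% and 6.84% of all genes tested.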

How the data were processed

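Per the labels, biotin-labelled RNA of each pool from a one-cycle kit was hybridised to 1 array. The deposited values have the unit intensity: a signal per probe set, computed by the authors with MAS5 per the submitters' processing notes, whose version and settings are not given in the sources used here. A mean trimmed by 2% at each end came to 500.0 on every array, which shows a common scaling, and nothing further was normalized. There is no read depth, and precision depends on how many arrays there are.

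Of 45101 probe sets, the 34945 with a single gene symbol that were no controls were used. Each gene was read from its probe set with the highest mean log2 value, and 14044 of 18193 genes with signals above the array median on at least 2 of the 20 arrays were tested. All 20 arrays entered 1 limma 3.58.1 fit (R 4.3.3) of log2(signal + 25.9) with a mean per stage, eBayes with trend and 12 residual degrees of freedom. Contrasts were E10.5 minus E9.5, E9.5 minus E8.5 and their difference. The pseudocount was set at the middle of the 20 arrays' 25th percentiles. The procedure was tested on simulated data.

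Genes were named as the 15 largest rises and falls whose arrays did not overlap, called members of gene lists by size (up to 8 each way in neural lists, 4 in others), fixed marker genes, and the 6 largest step differences each way. Loci without a characterised gene, and genes read by cross-hybridising probe sets, were left unnamed but kept in all counts. The comparison, lists and rules were chosen with earlier results of these data known. Some genes stand in several lists. The alternatives were other scalings, pseudocounts, filters, probe set rules, array subsets, no fold limit, a replicate block and each array left out in turn.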

Additional observations from a re-analysis of the deposited data

How the results depend on the processing

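None of the 141 called named genes changed direction under the alternatives that gave 1 value per gene. The yolk sac endoderm list went from 1 rise and 5 falls to 4 rises and 3 falls without E9.5 replicate 3. Of these 141 genes, 77 kept the call under every alternative that tested them in this way and 64 lost it under at least 1. It was lost most often with a pseudocount 4 times larger (50 lost), with a gene's probe sets averaged (35) and after quantile normalization (21). Only 104 of the 141 were tested with the filter at the 75th percentile, and a gene left out there was not counted as lost. The 441 rises and 72 falls became 180 and 29 with the larger pseudocount, 714 and 114 with each probe set by itself, and 1681 and 960 with no minimum fold. The filter at the 75th percentile, which leaves 9186 genes, gave 279 rises, and without the arrays numbered 1 of E7.5 to E10.5 there were 115 falls. The 88 neural rises became 51 with the larger pseudocount, 55 with probe sets averaged and 162 with no minimum fold. The 253 larger steps became 147 after quantile normalization, 113 from the 3 stages alone, 123 from the 12 arrays up to E10.5 and 150 from those 12 with the replicate block. The 78 smaller steps became 47 from the same 12 and 154 with no minimum fold. Leaving out 1 array gave 418 to 503 rises, 62 to 98 falls, 83 to 95 neural rises, 172 to 258 larger steps and 58 to 90 smaller steps. Replicate numbers are not known to pair the samples: deviations of same-numbered E9.5 and E10.5 arrays correlated at 0.282, 0.087 and 0.064. With the replicate block on all arrays there were 447 rises, 74 falls, 89 neural rises, 278 larger steps and 86 smaller steps. The cause of each shift was not tested, apart from the looser or stricter rule where the alternative is one. Of 70 called named genes with another tested probe set, 50 had another called the same way, 20 had none and 0 had one called the opposite way. In 66 of the 70 every other probe set changed in the same direction, and the exceptions were Foxp2, Gabrb2, Rufy3 and Uty. Signals far below the array median carry little order, so changes of genes such as Slc17a6 or C1qc at E9.5 depend on the pseudocount in size.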
